A study of Mus musculus with 8 samples.

Results

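The anti-IRF5 CUT&Tag peaks described here are regions outside promoters that were called in both control libraries and in neither CpG library of mouse bone marrow-derived macrophages. They were chosen by merging the peaks of 4 anti-IRF5 libraries wherever they overlapped by at least 1 bp, and by keeping merged regions with a peak in control 1 and control 2, none in CpG 1 or CpG 2, and no peak in the Promoter class of the authors' annotation. Of 55621 merged regions on 21 chromosomes, 45799 held no promoter peak, and 3743 of these (8.17%) were control-only. The cells were wild-type macrophages grown from bone marrow, treated with CpG in the 2 CpG libraries and with PBS in the 2 control libraries. CpG is DNA with unmethylated CpG motifs, and its dose and duration are not given in the labels. The series also holds 4 IgG libraries, 2 per condition, which were not analysed on their own. The names of the lists show that each condition was called against IgG of that condition, so the background library and the treatment cannot be told apart. Nothing in the labels says whether libraries came from separate animals or cultures, and the spread between them may be technical.

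IRF5 is a transcription factor of the interferon regulatory factor family that rests largely in the cytoplasm. CpG DNA binds the endosomal receptor TLR9, which signals through the adaptor MyD88, and IRF5 is then modified and moves to the nucleus, where it acts at genes of inflammatory cytokines and interferons. In macrophages many regulatory elements outside promoters are enhancers, set up by lineage factors such as PU.1, C/EBP and AP-1, at which signal-dependent factors bind. CUT&Tag tethers a transposase through an antibody to DNA beside the protein, and pileups of released fragments are called as peaks. A peak list holds only what was called, so a region without a CpG peak has no CpG value in it, and the missing call is not a level of 0.

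Sequences of the regions themselves are not shown, because the build of the files was not given in the sources used here. Promoters of 3 genes are printed instead, from RefSeq (GRCm38.p6). They stand at the strongest control-only regions with both control summits within 150 bp of a start and in a 5′ untranslated region, at genes with a single promoter in the RefSeq table whose length in the files and in RefSeq differed by at most 100 bp. They run from 250 bases before the RefSeq start through the 30 bases that open the transcript, 5′ to 3′ on the strand of the gene. Capitals mark motif matches on either strand.
Anp32e promoter (chr3:95929007-95929286, plus strand): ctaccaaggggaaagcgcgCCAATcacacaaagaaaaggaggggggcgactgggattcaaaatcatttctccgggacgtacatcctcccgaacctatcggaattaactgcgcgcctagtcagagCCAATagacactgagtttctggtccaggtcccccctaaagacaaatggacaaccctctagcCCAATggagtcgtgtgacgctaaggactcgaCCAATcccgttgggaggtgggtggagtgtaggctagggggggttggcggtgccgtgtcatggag
Cdk1 promoter (chr10:69352883-69353162, minus strand): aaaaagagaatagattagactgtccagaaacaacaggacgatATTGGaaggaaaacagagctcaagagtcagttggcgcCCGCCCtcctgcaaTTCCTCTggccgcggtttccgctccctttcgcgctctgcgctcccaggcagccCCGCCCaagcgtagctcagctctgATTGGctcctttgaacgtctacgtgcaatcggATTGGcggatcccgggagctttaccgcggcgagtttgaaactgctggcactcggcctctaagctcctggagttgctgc
Cdc37l1 promoter (chr19:28990117-28990396, plus strand): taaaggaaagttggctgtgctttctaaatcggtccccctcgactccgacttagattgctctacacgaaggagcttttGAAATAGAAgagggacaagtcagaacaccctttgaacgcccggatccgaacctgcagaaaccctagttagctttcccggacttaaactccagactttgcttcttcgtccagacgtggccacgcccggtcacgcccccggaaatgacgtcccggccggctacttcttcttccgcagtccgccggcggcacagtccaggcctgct

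Anp32e encodes a chaperone of the histone variant H2A.Z, Cdk1 the kinase that drives mitosis, and Cdc37l1 a partner of the chaperone Hsp90. The Anp32e window held the CCAAT box (CCAAT) 4 times and no other motif searched. In the Cdk1 window there were 3 CCAAT boxes, 2 boxes of the SP and KLF type (GGGCGG) and 1 ETS core (AGAGGAA). The Cdc37l1 window held the core of an interferon response element (GAAANNGAA), from position -173 to -165 counted from 0 at the RefSeq start. Among 32851 RefSeq windows of the same length, the CCAAT box was found in 36.1%, the SP and KLF box in 34.7%, the ETS core in 9.70% and the interferon response element core in 8.06%. Also searched, with no match in these 3 windows, were AP-1 (TGANTCA, 7.46%), NF-kB (GGGANTTCC, 1.61%), the E-box (CACGTG, 6.79%), an NRF1 core (GCGCATGCG, 1.67%) and a second ETS core (CCGGAAG, 8.45%). The ETS cores share the letters GGAA. The matches are letters in these windows and do not show a bound site.

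Control-only regions had fragments at these starts in both control libraries. The region at Anp32e (chromosome 3, 95836180 to 95836907 in the files) had no peak in CpG 1 or CpG 2, and pileups of 50 in control 1 and 45 in control 2. Its fold enrichments, the ratio of the pileup to the local background given by the authors' caller, were 18.9 and 16.9, and its summits lay 102 and 9 bp past the start. At Cdk1 (chromosome 10, 69187946 to 69189122) the pileups were 19 and 36 and the fold enrichments 7.43 and 14.3 in control 1 and control 2. The Cdc37l1 region (chromosome 19, 28967679 to 28967898) reached pileups of 24 and 30 and fold enrichments of 6.70 and 8.15. The closest peak of CpG 1 to Anp32e was 13249 bp away and that of CpG 2 was 21069 bp away, so no CpG peak stood beside this start. Such starts count as outside promoters because the Promoter class mostly follows the upstream side. It took 97.7% to 98.1% of peaks whose summit lay up to 2 kb upstream of a start, against 28.4% to 30% of those up to 1 kb downstream. In all, 432 control-only regions (11.5%) had a peak midpoint within 1 kb of a start, of which 140 touched a 5′ untranslated region.

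With all 4 libraries, the control-only pattern was the more common of the 2 condition patterns. Against 3743 control-only regions there were 535 CpG-only regions (1.17% of non-promoter regions), called in CpG 1 and CpG 2 and in no control library. Of the 12858 non-promoter regions called in both control libraries 29.1% were control-only, whereas 9.44% of the 5665 called in both CpG libraries were CpG-only. The others in both control libraries were 4062 found in all 4 libraries, 4673 missing only from CpG 1 and 380 missing only from CpG 2. These counts moved with the length of the lists, which held 13553 and 25851 peaks in CpG 1 and CpG 2 and 29226 and 37315 in control 1 and control 2. With the 13553 strongest peaks of each library, 1136 regions were control-only and 755 CpG-only. Dropping CpG 2 gave 8601 control-only and 4531 CpG-only regions. Dropping CpG 1, the shortest list, gave 4126 and 5125, so the CpG-only pattern was then the more common. A call in 1 CpG library then suffices for CpG-only. With control 1 left out there were 15889 control-only regions, and with control 2 left out 11846, since a call in 1 control library then suffices.

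Non-promoter peaks were fewer in both CpG libraries than in both control libraries. There were 11405 and 20637 in CpG 1 and CpG 2, against 23454 and 30358 in control 1 and control 2. The 2 conditions did not overlap. The means were 16021 ± 6528 in CpG and 26906 ± 4882 in control (SD, n = 2 each), and the two-sided exact permutation test gave p = 0.333, the smallest that 6 assignments allow. The share of peaks outside promoters was 84.2% and 79.8% in CpG 1 and CpG 2 and 80.3% and 81.4% in control 1 and control 2, and these ranges overlapped (exact permutation p = 1).

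Most control-only regions were of middling strength within their own lists. By fold enrichment their median percentile was 51.4 in the control 1 list and 51.3 in the control 2 list, where 100 is the strongest peak. Regions found in all 4 libraries had medians of 76.6 and 85.4 in the same lists. Median pileups of control-only regions were 14 and 16 in control 1 and control 2, with ranges of 7 to 80 and 8 to 68. Their fold enrichments had medians of 5.77 and 6.20 and reached 28.5 and 25.4. These values come from the peaks that chose the regions and are given as a description. Each region was ranked by the lower of its 2 control percentiles, which had a median of 36.0 and ran from 0.245 to 97.1. Both control peaks stood at or above the 75th percentile in 281 regions and at or above the 90th in 30.

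The control-only share was lower where the control peaks were strong. It was 37.8% of the 3317 regions with a lower percentile under 25, 41.4% from 25 to 50, 27.9% from 50 to 75, 12.6% from 75 to 90 and 2.57% of the 1168 regions above. In that last group 70.5% were called in all 4 libraries. By length, of regions in both control libraries up to 250 bp long 86.3% were control-only, against 55.4% of those above that and up to 500 bp, 24.5% of those up to 1000 bp and 4.56% of longer ones, where merging over more libraries itself adds length. With only peaks of a −log10 q of at least 5, 3223 regions were control-only.

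**Figure D1:**
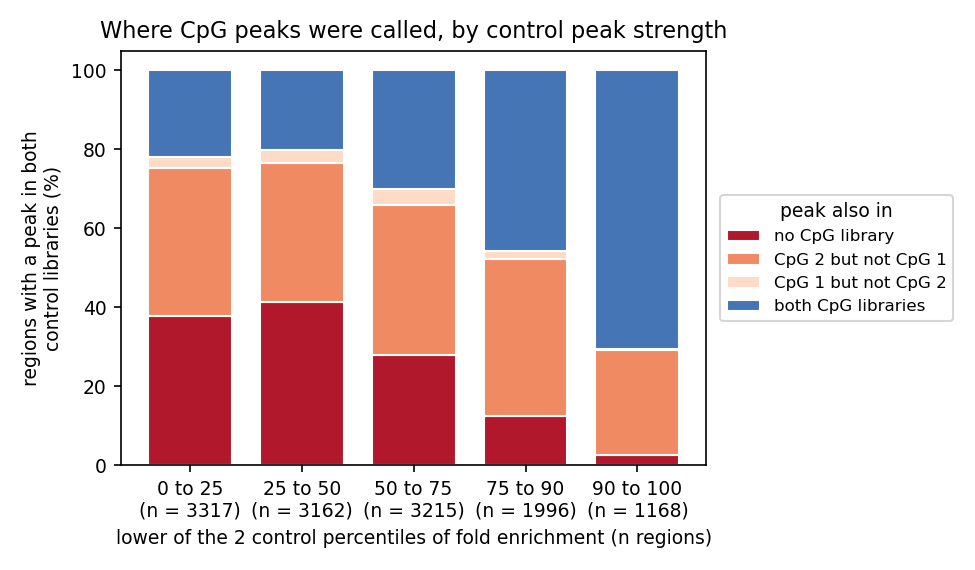
Non-promoter regions with a peak in both control libraries, grouped along the x axis by the lower of their 2 control percentiles of fold enrichment, and on the y axis the percent with a peak in no CpG library, in CpG 2 alone, in CpG 1 alone or in both. The part with no CpG peak is 37.8% in the weakest group and 2.57% in the strongest.

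The rule keeps only regions where peaks of both control libraries merge, so their summits are near each other largely by selection. Heights in the 2 libraries were loosely related. Summits lay within 100 bp of each other in 1996 control-only regions (53.3%), with a median offset of 92 bp, and 3585 regions held a single peak of each control library. Across the 3743 regions the log2 fold enrichments of control 1 and control 2 had a Pearson correlation of 0.34, and across the 4062 regions of all 4 libraries of 0.59. Regions are points that share 2 libraries and a narrow range of heights, so these correlations are descriptions. The authors' list of the whole control condition had a peak over 3564 control-only regions (95.2%), and their CpG condition list over 19. These lists are of the same conditions whose calls chose the regions, so they are no independent check.

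**Figure D2:**
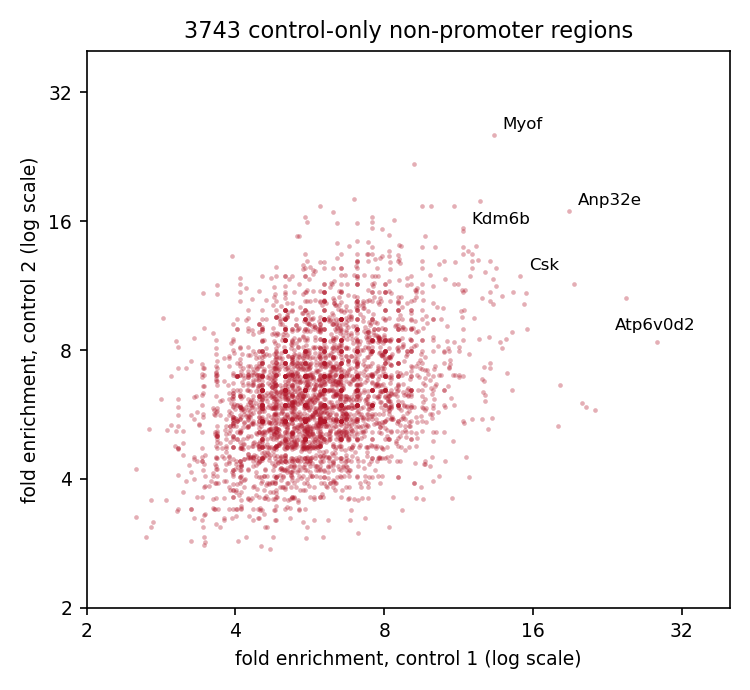
Fold enrichment of the 3743 control-only non-promoter regions in control 1 (x axis) and control 2 (y axis), both on log scales with 1 point per region. Most points lie near the medians of 5.77 and 6.20, and named points such as Myof (13.4 and 25.4) and Anp32e (18.9 and 16.9) stand above them.

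CpG peaks lay close to some control-only regions. The shares below were not counted for other regions and are a description. A peak of CpG 1 lay within 1 kb of 252 control-only regions and a peak of CpG 2 within 1 kb of 782, and 844 (22.5%) had at least 1 of them. Within 10 kb this was so for 2659 regions (71.0%). The median gap to the closest peak was 13733 bp for CpG 1 and 4440 bp for CpG 2, the library with more peaks. Leaving out every region with a CpG peak within 1 kb kept 2899.

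At the edge of the rule the calls were thin. The 3 weakest regions kept were near Cfap36, the helix-loop-helix inhibitor Id2 and the potassium channel gene Kcnk13, each with a −log10 p of 5.01 in control 1. Just outside were regions near the phospholipase gene Pla2g4a, Rpn1 and the integrin gene Itgb5. They had peaks in both control libraries and a CpG 1 peak with a −log10 p of 5.00 at each, where the lowest value in the lists was 5.00.

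The highest ranked control-only region was an intron of Myof, which encodes the membrane repair protein myoferlin (chromosome 19, 38003715 to 38004616, 27898 bp past the start). It had no peak in either CpG library, and pileups of 35 and 68 with fold enrichments of 13.4 (control 1) and 25.4 (control 2). The closest CpG 1 peak was 21025 bp away and the closest CpG 2 peak 3675 bp. Next by rank, apart from Anp32e, was an intergenic region of 1280 bp near Gm14120, with pileups of 24 and 35.

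An intron of Mbnl1, which encodes a splicing regulator, held the fourth (nearest gene Gm37589), with pileups of 22 and 30. A CpG 2 peak lay 407 bp from it. The region 10526 bp upstream of Kdm6b, the demethylase of histone H3 lysine 27 also called Jmjd3, had pileups of 27 and 37 and fold enrichments of 11.5 and 15.2 (chromosome 11, 69314786 to 69315433). Upstream of Asxl1, a chromatin regulator tied to Polycomb function, by 7128 bp, the pileups were 21 and 34. Another, in an intron of the RNA-editing enzyme gene Apobec1 (nearest gene Gm16556), was 1766 bp long with pileups of 23 and 26. The remaining 5 of the 12 strongest were near Gm16863, Rps3a3, Gm13865, Pfpl and Gm46189, with pileups of 20 to 32 in control 1 and 26 to 37 in control 2. The region near Gm13865 was also among the 19 under a peak of the CpG condition list.

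The longest control-only region, 2785 bp, was in an intron of Zeb2, a transcription factor that maintains macrophage identity (nearest gene Zeb2os, pileups of 27 and 18), and a CpG 2 peak lay 197 bp away. In introns of Rap1b, a small GTPase of integrin signalling, and of Csk, the kinase that holds Src family kinases inactive, the regions were 2608 and 2408 bp long. The Csk region had pileups of 29 and 23 and fold enrichments of 15.1 (control 1) and 11.9 (control 2). A region of 2250 bp lay 12765 bp past the start of Fos, an AP-1 subunit, and one of 2237 bp in Trim11, a ubiquitin ligase gene. These are lengths of merged regions. The strongest peaks of control 1 and control 2 were 2785 and 769 bp at Zeb2, 2608 and 580 bp at Rap1b, and 2237 and 304 bp at Trim11. At Csk they were 1339 and 1825 bp, and at Fos 580 and 1869 bp. The most distant regions were 407531 bp from a U6 copy, 231926 bp from a 5S_rRNA copy and 229328 bp into Rora, a nuclear receptor gene.

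Compared with CpG-only regions and with those of all 4 libraries, control-only regions lay more often in introns and closer to gene starts. Introns held 61.8% of control-only regions, 52.3% of CpG-only regions, 55.9% of those in all 4 libraries and 57.4% of all non-promoter regions. Exons held 12.7%, against 7.85%, 8.15% and 9.17%, and intergenic sequence 31.3%, against 43.2%, 41.3% and 36.5%, in the same order. A region can hold several classes, and regions are not replicates, so the shares were not tested. The median distance to the nearest start was 8515 bp in control-only regions, against 15636 bp in CpG-only regions, 12035 bp in those of all 4 libraries and 10977 bp overall. Control-only regions were 147 to 2785 bp long with a median of 442 bp.

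Per library, the intron share of non-promoter peaks was 50.7% and 55.7% in CpG 1 and CpG 2, against 57.6% and 56.9% in control 1 and control 2. Peaks within 10 kb of a start made up 40% and 48.9% in CpG, against 52.5% and 50.3% in control. Both measures were lower in both CpG libraries, CpG 1 standing farther off than CpG 2, and the two-sided exact permutation test gave p = 0.333 for each.

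**Figure D3:**
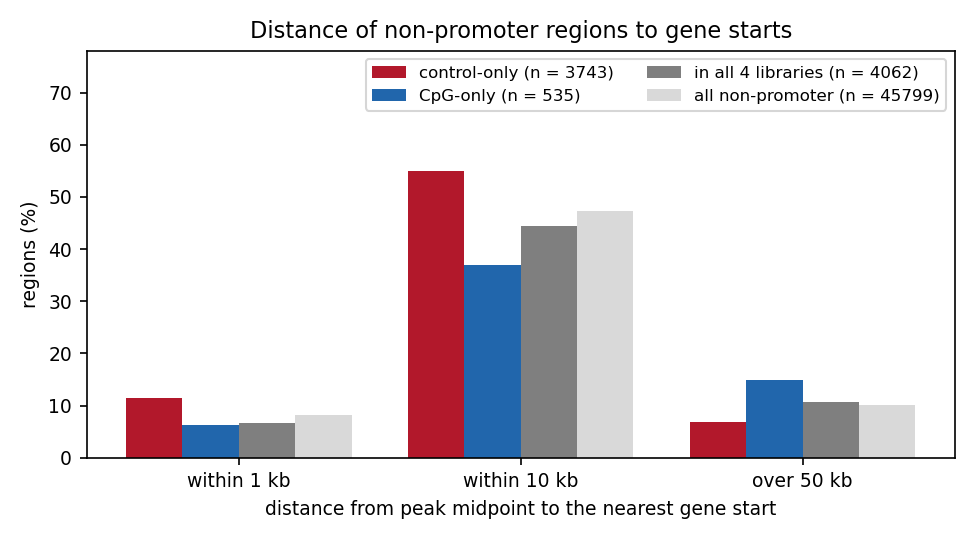
Percent of control-only, CpG-only, all-library and all non-promoter regions (y axis) whose peak midpoint lay within 1 kb, within 10 kb or over 50 kb from the nearest gene start (x axis). Within 10 kb are 54.9% of control-only, 37.0% of CpG-only, 44.4% of all-library and 47.3% of all non-promoter regions.

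Chromosome 11 carried the most control-only regions, 395 or 10.6% of them, against 6.17% of CpG-only regions, 6.87% of those in all 4 libraries and 7.94% of all non-promoter regions. Of its 1088 regions in both control libraries 36.3% were control-only, against 22.0% on chromosome 16 and 22.1% on chromosome 13. Peaks on chromosome 11 made up 5.74% and 7.86% of non-promoter peaks in CpG 1 and CpG 2, and 8.87% and 8.35% in control 1 and control 2 (exact permutation p = 0.333). Chromosome X held 50 control-only regions and chromosome Y held 1.

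Control-only regions were spread over 2950 nearest genes, of which 2888 had a name in the files (13.9% of 20805 named genes nearest to any peak). The nearest gene is the annotation's and need not be a target. In all, 2580 control-only regions lay in a gene, and 1075 lay inside a gene that was not the nearest one. Regions named below by a nearest gene can thus lie in another, as that of Tbk1 in an intron of Xpot and that of Cebpb in an intron of Tmem189. Of the 2950, 2375 were nearest to 1 control-only region, 575 to at least 2 and 24 to at least 5. A region in all 4 libraries was also near 875 of the 2950 and a CpG-only region near 87. Of the 17527 genes nearest to any non-promoter region, these numbers were 3116 and 522. No non-promoter region with a CpG peak was near 952 of the 2950, which was not counted for other genes and depends on the shorter CpG lists. Promoter peaks were absent from all 4 libraries for 1705 of the 2950 genes (57.8%) and present in all 4 for 202 (6.85%). Both figures were 60.6% and 6.71% for the 3116 genes nearest to a region in all 4 libraries, and 70.8% and 4.40% for the 17527 genes nearest to any non-promoter region. A control-only promoter stood beside the control-only region for 167 genes (5.66%), against 4.33% and 3.27% of the genes in those 2 sets.

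Syk, the tyrosine kinase that carries signals from Fc receptors and C-type lectin receptors, had the most, with 9 control-only regions. It was nearest to 20 regions called in both control libraries, of which 8 were in all 4 libraries. The strongest control-only region at Syk (chromosome 13, 52750532 to 52751865) was intronic, 13669 bp past the start, with pileups of 28 and 25 in control 1 and control 2, and CpG peaks lay 1887 bp (CpG 1) and 1544 bp (CpG 2) away. Cmip, which encodes the c-Maf inducing protein, had 8 of 11 such regions control-only and 2 in all 4 libraries. At Gng2, a subunit gene of G proteins, 7 of 10 regions in both control libraries were control-only, all inside the gene, and 1 was in all 4.

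Atg7, the E1-like enzyme gene of autophagy, was nearest to 8 control-only regions of 16 in both control libraries, none of them in the gene and none in all 4 libraries. They lay 28571 to 89740 bp from its start. With regions near the histamine receptor gene Hrh1 they made a run of 11 in 109 kb on chromosome 6. The other genes with the most control-only regions were Gm50210 with 7, which lie around the sphingomyelin synthase gene Sgms1, and, with 6 each, Rap1b, the chemokine gene Ccl6, Dnmt3aos beside the DNA methyltransferase gene Dnmt3a, Metrnl, which encodes a secreted factor, and 4933433H22Rik. None of these 10 genes had a CpG-only region, and few genes did. Such a region was near 87 of the 2950 nearest genes of control-only regions and 522 of the 17527 genes nearest to any non-promoter region.

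**Figure D4:**
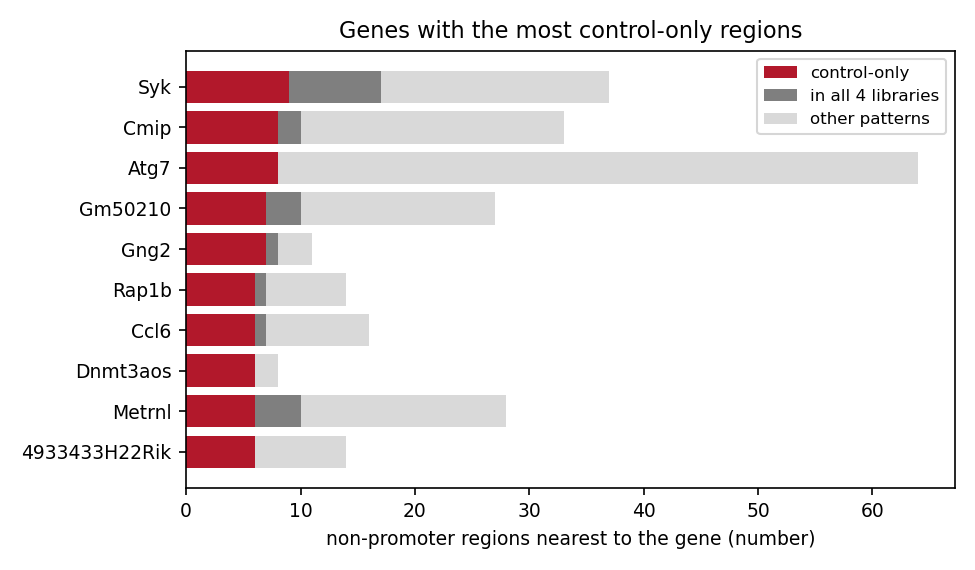
Number of non-promoter regions nearest to each of the 10 genes with the most control-only regions (x axis), split into control-only, in all 4 libraries and other patterns. Syk has 9 control-only and 8 all-library regions, whereas Gng2 has 7 and 1, and Atg7 has 8 and 0 among 64 regions.

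Another control-only region lay within 50 kb of 2084 control-only regions (55.7%), and 65 chains held at least 5. Counted in the same way within their own sets, the share was 7.48% of the 535 CpG-only regions, 57.8% of the 4062 regions in all 4 libraries, which made 75 such chains, and 92.2% of all non-promoter regions, a share that rises with the size of the set. The largest chain, 13 of 20 regions in both control libraries over 68.4 kb around Rap1b (chromosome 10, 117644395 to 117712837), had 2 regions in all 4 libraries. A chain of 10 of 23 regions ran over 113 kb through the chemokine genes Ccl4, Ccl6 and Ccl9 on chromosome 11, with 4 regions in all 4 libraries. By the gene that contains them, a choice made after values were seen, Dnmt3a held 6 control-only regions of 6 called in both control libraries, Gng2 7 of 8, Cmip 7 of 8 and the unconventional myosin gene Myo1e 8 of 14.

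Gene lists chosen for macrophage biology and TLR9 signalling were read against the 29.1% of all regions in both control libraries that were control-only, and against the median lower percentile of 36.0. A list with many regions also has many genes with a control-only region, so shares of regions are given beside counts of genes. No list was tested. In lists with at least 15 regions the share ran from 19.2% to 40%.

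Lipid and cholesterol genes had 28 of 70 regions control-only (40%, median percentile 34.3), at 17 of 31 genes. Abca1, the transporter that exports cholesterol, had a region in an intron 43783 bp past its start (chromosome 4, 53115990 to 53116600) with pileups of 30 and 28 and fold enrichments of 13.4 (control 1) and 12.5 (control 2). The closest CpG peaks lay 3716 bp (CpG 1) and 2258 bp (CpG 2) away, and 4 of 10 Abca1 regions in both control libraries were in all 4. Alox5ap, needed for leukotriene synthesis, had 1 region with pileups of 19 and 21. The transporter gene Abca9 had pileups of 12 and 18.

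Actin regulators had 31 of 82 regions control-only (37.8%, median percentile 33.7), at 15 of 40 genes. Iqgap1, a scaffold of the actin cortex, had 5 of 9, the strongest with pileups of 22 and 17. The exchange factor gene Vav3 had 3 of 8. Regions near Arhgap25 and Arhgap15, which encode GTPase activators, had pileups of 14 and 12 and of 20 and 24 in control 1 and control 2.

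Macrophage surface genes had 29 of 85 regions control-only (34.1%, median percentile 25.3), at 14 of 28 genes. At the scavenger receptor gene Msr1, 2 of 6 regions in both control libraries were control-only and 0 were in all 4, although its promoter had a peak in every library. The monocyte chemokine receptor gene Ccr2 had a region 33434 bp upstream with pileups of 15 and 15, the mannose receptor gene Mrc1 an intronic one with 13 and 23, and the receptor subunit gene Csf2rb one 277 bp past its start with 13 and 20. Macrophage transcription factors had 20 of 59 (33.9%, median percentile 39.8), at 15 of 29 genes. All 3 regions of Klf4 in both control libraries were control-only, the strongest with pileups of 23 and 22, beside promoter peaks in all 4 libraries. The strongest regions at Id2, Bach1, a repressor of the haem response, and Cebpb, a factor of the C/EBP family, had pileups of 16 and 16, 21 and 21, and 25 and 20.

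PI3K signalling genes had 27 of 82 regions control-only (32.9%, median percentile 42.1), with Syk as the largest contributor at 9. The lipid phosphatase gene Inpp5d (SHIP1) had an intronic region with pileups of 25 and 19, and CpG peaks 190 bp (CpG 1) and 272 bp (CpG 2) from it. Pik3ca, the catalytic subunit p110 alpha, had pileups of 23 and 37, and the adaptor gene Sh3kbp1 13 and 18. Without the 20 regions of Syk the list had 18 of 62 (29.0%). Lysosome and phagocytosis genes stood at 27 of 89 (30.3%, median percentile 41.1), at 17 of 34 genes. There the protease gene Ctsd had pileups of 33 and 34, the NADPH oxidase gene Cybb 19 and 25, Elmo1, an engulfment adaptor gene, 21 and 20, and the proton pump subunit gene Atp6v0d2 60 and 17, where its control 1 fold enrichment of 28.5 was the highest of any control-only region.

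TLR and MyD88 genes had 10 of 52 (19.2%, median percentile 57.8), at 8 of 31 genes. Tbk1, a kinase of interferon induction, had a region 10193 bp upstream (chromosome 10, 121432340 to 121433274) with pileups of 22 and 28 and fold enrichments of 8.54 (control 1) and 10.7 (control 2), beside promoter peaks in all 4 libraries. The TLR-like receptor gene Cd180 had pileups of 19 and 21, the kinase gene Ikbkb 14 and 15, and Tlr7, a sensor of RNA, 15 and 13. NF-kB subunits and regulators had 9 of 43 (20.9%, median percentile 45.7). Tnfaip3, which encodes the NF-kB inhibitor A20, had 3 of 6, the strongest 50728 bp from its start with pileups of 17 and 15. Those of Birc2 and Otulin, of the ubiquitin arm of the pathway, had pileups of 13 and 17 and of 15 and 13. MAP kinases and AP-1 had 8 of 36 (22.2%, median percentile 38.0), among them Fos with 26 and 31, the p38 gene Mapk14 with 12 and 15, the phosphatase gene Dusp4 with 15 and 13 and Batf3 with 70 and 16.

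Irf5 itself had 2 control-only regions of 4 called in both control libraries, and 1 in all 4. The stronger (chromosome 6, 29536573 to 29537368) lay in an intron 10347 bp past the start, with no peak in either CpG library and pileups of 12 and 18 and fold enrichments of 6.54 (control 1) and 9.43 (control 2). CpG peaks were 3136 bp (CpG 1) and 7060 bp (CpG 2) away. Irf8, a lineage factor of macrophages, had 1 of 3 with pileups of 12 and 28, and Irf7, which amplifies interferon, 1 of 1 with 22 and 16. Irf2 and Irf3 each held a control-only region whose nearest gene was another, and the list stood at 4 of 9.

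Inflammatory cytokine and chemokine genes had 15 of 60 (25%, median percentile 34.2), at 8 of 33 genes. Ccl6 alone had 6, the strongest 9060 bp upstream with pileups of 23 and 27. The neutrophil chemokine gene Cxcl1 had 1 region with pileups of 11 and 16, and the chemokine genes Ccl12 and Ccl4 had strongest regions with 10 and 12 and with 11 and 11. Interferon-stimulated genes had 4 of 15, with Stat2, Trim25, Samhd1 and Ifit3 as nearest genes and pileups of 9 to 16. The region assigned to Ifit3 lay inside Ifit2, 13238 bp upstream of Ifit3. Cytokine receptor genes stood at the background with 20 of 69 (29.0%, median percentile 28.8). In that list Ifnar2, a chain of the type I interferon receptor, had the strongest region, an intronic one with pileups of 20 and 25 and fold enrichments of 10.6 and 12.9. Regions at Stat3, Jak2 and Ccr1 had pileups of 10 to 20.

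Antigen presentation genes had 8 of 36 (22.2%, median percentile 45.0), led by the protease gene Ctss with pileups of 16 and 28, and with B2m, Cd274 and H2-Ab1 at 11 to 15. Alternative activation genes had 7 of 21 (33.3%), led by the transglutaminase gene Tgm2 with 16 and 21, then Mrc1, the nuclear receptor gene Pparg with 13 and 11 and Ccl17 with 9 and 15. Glycolysis and hypoxia genes had 5 of 22 (22.7%), at Pdk1, Pgam1, Gpi1 and Hk2.

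**Figure D5:**
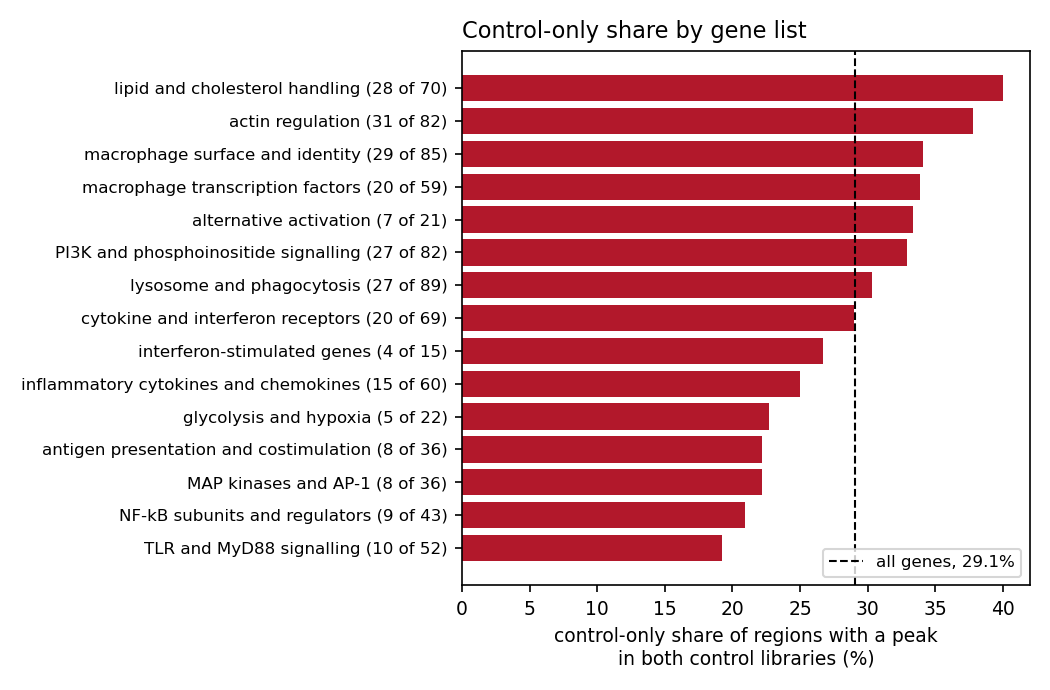
Percent of the regions called in both control libraries that were control-only (x axis) for the gene lists with at least 15 such regions, with both numbers beside each name and a dashed line at 29.1% for all non-promoter regions. Lipid handling (40%) and actin regulation (37.8%) stand highest and TLR and MyD88 signalling (19.2%) lowest.

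Markers of the labelled cell type were present. Of 10 macrophage markers 4 and 7 had a promoter peak in CpG 1 and CpG 2, and 7 and 8 in control 1 and control 2, and Itgam was the nearest gene of no peak. Control-only regions near markers of other cells were few. They were the 1 region in both control libraries at the B cell gene Ms4a1 (pileups of 16 and 19), 3 of 6 at dendritic cell genes, namely Itgax and Batf3, 1 of 7 at T and NK cell genes (Klrb1c), 1 of 3 at stromal and endothelial genes (Pecam1), 0 of 2 at neutrophil genes, 0 of 1 at erythroid genes and 0 of 7 at genes of unrelated tissues. These counts go by the nearest gene. Tcf4 of the dendritic cell list, Kdr of the stromal and endothelial list, and Mbp and Ryr1 of the unrelated tissues also held control-only regions whose nearest gene was another. What other cells contributed to the calls was not tested.

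The files give transcription factor families per peak, and each was assigned here to the nearest gene of its peak, which need not be the factor gene. Of 1312 genes with a family so assigned, 216 (16.5%) were nearest to a control-only region, against 13.9% of all named genes. The IRF label had 5 of 13, ETS 9 of 30, bZIP 17 of 65 and bHLH 17 of 66. C2H2 zinc fingers had 54 of 385 and HMG factors 7 of 64. The fixed list of interferon regulatory factors has only 9 genes, 3 of them nearest to a control-only region, so the label counts are not counts of factor genes. Counts per gene rise with the number of peaks near a gene, and the families were not tested.

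Among 388 microRNA genes nearest to any peak 61 (15.7%) were nearest to a control-only region. The mature sequences of 4 of them are printed from RefSeq (GRCm38.p6) as well-known microRNAs, chosen after their values were seen. Each has a seed (bases 2 to 8, in capitals) that none of the others shares.
miR-21a-5p: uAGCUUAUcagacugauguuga
miR-223-3p: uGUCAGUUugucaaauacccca
miR-342-3p: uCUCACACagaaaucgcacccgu
miR-25-3p: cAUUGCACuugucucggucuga

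Mir21a, whose product restrains inflammatory signalling in macrophages, was nearest to 4 control-only regions of 9 in both control libraries, and 2 of the 9 were in all 4 libraries. Of these, 3 were in introns of the neighbouring autophagy gene Vmp1, with pileups of 15 to 20 in control 1 and 13 to 18 in control 2, and the strongest lay 15409 bp past the Mir21a start with 19 and 15. Mir342 had the strongest region of these microRNA genes, 27374 bp upstream, with pileups of 21 and 22 and fold enrichments of 11.1 (control 1) and 11.4 (control 2). At Mir223, a microRNA of the myeloid lineage, 1 region of 1373 bp lay 2319 bp past the start with pileups of 13 and 19. The Mir25 region, 85 bp past its start, had 11 and 11.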

How the data were processed

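Anti-IRF5 CUT&Tag libraries of 2 conditions were compared through 6 deposited lists of annotated peaks (1 per library, 1 per condition). Per the submitters' processing notes the tools were BWA 0.7.12, fastp 0.20.0, ChIPseeker and MACS2 2.1.0, and no build was given in the sources used here. The pileup is the signal at a peak's summit as deposited by the authors. Fold enrichment is the ratio of pileup to local background, deposited by the authors. It was ranked within each list, and values of different lists were set side by side or correlated only as a description. Significance was deposited by the authors as −log10 of the p-value and of the q-value, under damaged headers that were read from their order. Lists give no read totals, so depth is unknown and no interval is given for peak numbers.

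Lines that continued overlong annotation cells (281, 682, 875 and 1017 in CpG 1, CpG 2, control 1 and control 2) and peaks on other contigs were skipped. Merging was done with pandas 2.3.3 under Python 3.11.15 and tested on simulated peaks. Per-library values were compared by two-sided exact permutation tests. Named are the nearest genes of the 12 highest ranked regions, the 10 genes with the most regions, up to 4 genes of each of 23 gene lists, the 5 longest and 3 most distant regions and the 3 regions on either side of the rule's limit. The members and lists were chosen with earlier results of these data known. Promoter and microRNA sequences were added after the data were seen. Some genes that the rule would name are not reported here.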

Additional observations from a re-analysis of the deposited data

How the results depend on the processing

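Values are given as the count of control-only regions, then their share of non-promoter regions, intron share, nearest named genes, ratio of CpG-only to control-only regions, median distance to a start and genes of the fixed lists, which were 3743, 8.17%, 61.8%, 2888, 0.143, 8515 bp and 154. Lists of equal length gave 1136, 5.17%, 59.8%, 1043 named genes, a ratio of 0.665 and 72 list genes, and the authors' condition lists gave 13606, 55.4%, 58.6%, 7606 named genes and 289 list genes. A promoter defined by distance from a start gave a share of 7.63%, an intron share of 60.0% and a median distance of 12898 bp, which follows from its construction. The share was 7.24% with stricter merging, 8.67% with wider merging, 9.07% at a −log10 q of at least 5 and 6.33% without regions near a CpG peak. Leaving out 1 library gave 4126 to 15889 regions, shares of 9.82% to 40.1%, intron shares of 58.7% to 61.0%, 3145 to 8629 named genes, ratios of 0.0447 to 1.24 and 164 to 305 list genes. The alternatives not named for a result kept these counts, ratios and distances within 1.5 times, and the intron share within its 95% binomial interval (60.2% to 63.4%).

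The difference in non-promoter peaks (CpG minus control) was -10885, ranged from -15501 to -6269 with 1 library left out, and was -10885 with the replicate block (exact p = 0.5, the smallest it allows). The difference in the share of peaks outside promoters was 1.19 percentage points, also with the replicate block (exact p = 1). It ranged from -0.973 to 3.35 with 1 library left out and was -0.973 without CpG 1. Same-numbered libraries had deviations of log2 fold enrichment that correlated at 0.35 across 4062 regions, and the labels give these libraries only a shared number. Motif shares in the regions themselves, planned for a genome of the files' build, were not run.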

Other observations

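Some genes had regions of both condition patterns. Of the 2950 nearest genes of control-only regions 87 were also nearest to a CpG-only region, beside 522 of the 17527 genes nearest to any non-promoter region. Tcf7l2, a transcription factor of Wnt signalling, had 2 control-only and 2 CpG-only regions and 2 in all 4 libraries. Zeb2os, in the Zeb2 locus, had 5 control-only and 1 CpG-only region, and the cholesterol ester hydrolase gene Nceh1 had 4 and 1. Tnfrsf1b, a receptor for TNF, had 3 and 1 beside 7 in all 4 libraries. These genes were chosen after their values were seen.

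A further set of values concerns the 19 control-only regions under a peak of the authors' CpG condition list, although neither CpG library had a peak there. Ahnak, which encodes a large scaffold protein, had a region of 1658 bp with pileups of 37 and 23 in control 1 and control 2. The growth arrest gene Gadd45g had a region with pileups of 21 and 16.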
